A study of Arabidopsis thaliana with 12 samples.

Results

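The comparison of aig2abc pad4 with pad4 asks what mutation of the AIG2 cluster changes in Arabidopsis thaliana shoots that carry pad4, and its members are the 3 aig2abc pad4 libraries and the 3 pad4 libraries, 6 of the 12 in the series, with all genes of the count table. PAD4 is a lipase-like protein that, with its partner EDS1, promotes salicylic acid defence, and AIG2A, AIG2B and AIG2C are neighbouring genes that RefSeq describes as an AIG2-like (avirulence induced gene) family. The aig2abc pad4 plants carry the mutations in these 3 genes together with pad4, the pad4 plants carry pad4 alone, and both groups therefore share the PAD4 lesion. The other 6 libraries, 3 of aig2abc and 3 of the wild type Col-0, served as the same contrast with PAD4 present. Whole shoots of 2-week-old plants, kept at 22 °C under constant light of 100 µmol per square metre and second and at 50% humidity, were profiled by 3′ RNA-seq, which counts transcripts at their 3′ ends. How the lesions were made, and whether a genotype is 1 line, is not stated in the labels. Whether each library had its own plants is not stated either, so the p-values rest on a library-to-library spread that may be technical.

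Arabidopsis answers attack with secreted antimicrobial proteins, with toxic compounds made from tryptophan, and with hormone programmes. Jasmonate and ethylene act together through ERF factors on defensin genes, whereas salicylic acid acts through NPR receptors and WRKY factors on PR genes. Camalexin and the indole glucosinolates share a tryptophan-derived precursor, indole-3-acetaldoxime, and glutathione donates sulfur to both. In bulk shoots, fewer cells of a type and less RNA per cell cannot be told apart.

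The aig2abc pad4 libraries held 5542138 to 8330632 counts and the pad4 libraries 7991739 to 10697612, while the aig2abc libraries were shallower at 584342 to 3005199. Of 33331 genes, 15082 had enough counts for the edgeR quasi-likelihood test with Benjamini-Hochberg adjustment, and a gene is called where the adjusted p was under 0.05. Levels are given as CPM (counts scaled to a common library size), and differences as log2 fold changes of aig2abc pad4 over pad4 with their standard errors. Among shoot markers, the summed CPM of 4 mesophyll genes was 23900 to 46400 in aig2abc pad4 and 32500 to 48600 in pad4. The summed CPM of 5 root markers was 0.192 to 1.15 in aig2abc pad4 and 1.91 to 3.45 in pad4, and that of 4 flower markers was 0.493 to 2.11 in aig2abc pad4 and 1.15 to 1.76 in pad4. Among libraries of 1 group, the main axis of variation set aig2abc pad4 replicate 3 apart from replicates 1 and 2, with scores of -61.2 against 35.7 and 25.5, and pad4 replicate 1 apart from replicates 2 and 3, with 36.8 against -8.01 and -28.8. The chi-square of counts per gene was 3.39 between aig2abc pad4 replicates 1 and 2. It was 57.7 and 40.7 between these and replicate 3, and 27.5 to 45.6 among pad4 libraries. Whether replicates 1 and 2 share plants was not tested, and every test counted them as separate libraries.

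Most genes called differently in aig2abc pad4 than in pad4 were higher. In aig2abc pad4, 503 genes were called higher, 3.34% of those tested, and 100 were called lower, 0.663%. The higher genes had a median log2 fold change of 2.22, and 97 of them differed by 16-fold or more. The lower genes had a median of -1.27, and 7 of them differed by 4-fold or more, against a median of -0.02 over all genes tested. The 3 libraries of one group all lay above or below the 3 of the other for 10.1% of genes tested on the higher side and 8.18% on the lower side, called or not. Together the higher genes took 4.98, 4.71 and 3.67% of all counts in the aig2abc pad4 libraries and 0.788, 0.727 and 0.794% in the pad4 libraries. The lower genes took 0.734, 0.704 and 0.623% in aig2abc pad4 and 1.33, 1.45 and 1.24% in pad4. Without aig2abc pad4 replicate 3 the counts were 618 higher and 317 lower, and without aig2abc pad4 replicate 2 they were 359 higher and 22 lower. The lower count also fell to 29 without aig2abc pad4 replicate 1, to 65 without pad4 replicate 1 and to 30 without pad4 replicate 2, while 303 higher and 15 lower genes were called in every omission of 1 of the 12 libraries.

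**Figure D1:**
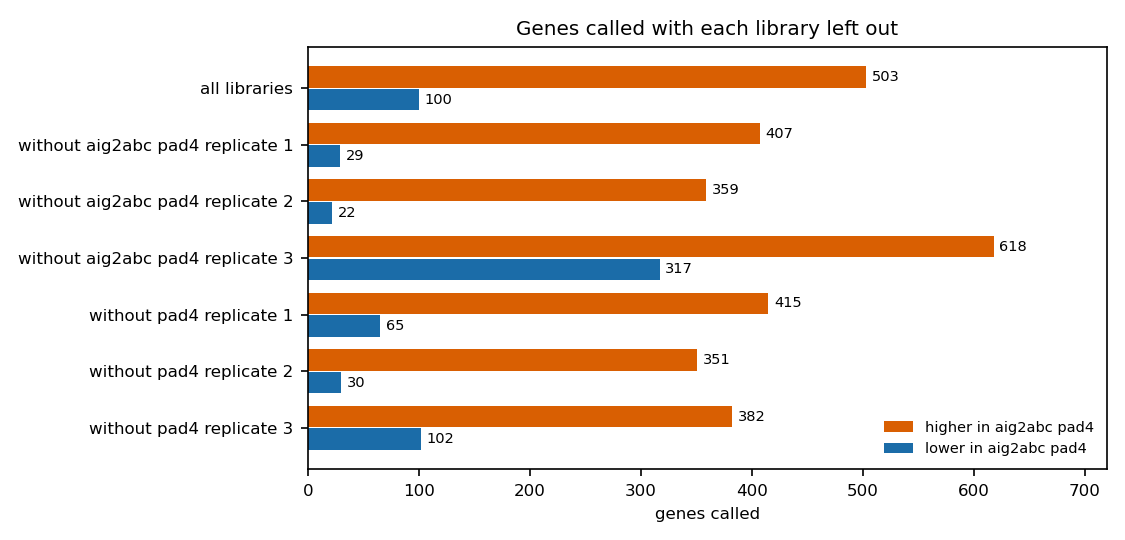
Bars give the number of genes called higher (orange) or lower (blue) in aig2abc pad4 with all libraries and with each of the 6 libraries of the comparison left out. The count of lower genes ranged from 22 to 317, while the count of higher genes stayed between 351 and 618.

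The targeted genes were read in every library. AIG2C had 5, 2 and 2 counts in the aig2abc pad4 libraries, or 0.481, 0.301 and 0.329 CPM, against 33.1, 40.0 and 43.9 CPM in pad4. The groups lay far apart, with a log2 fold change of -6.59 ± 0.43. AIG2A stood at 209, 227 and 209 CPM in aig2abc pad4, against 50.5, 50.2 and 46.8 CPM in pad4, a log2 difference of 2.13 ± 0.23 (edgeR adjusted p = 7.5e-06). AIG2B stood at 84.5, 125 and 353 CPM in aig2abc pad4, against 579, 1130 and 1260 CPM in pad4, and fell by 2.40 ± 0.45 on the log2 scale (edgeR adjusted p = 0.0032). Its highest aig2abc pad4 library was replicate 3, and without that library the log2 fold change was -3.24. Since 3′ tags may fall outside the mutated stretch, the counts of AIG2A and AIG2B neither show nor deny their lesions. The 3 genes are related copies that may have taken each other's reads, and how counts are shared out among them is uncertain. Of the 5 genes on either side of the cluster, 3 were tested and their log2 fold changes were -0.12 to 0.86, with none called. PAD4 itself stood at 5.1, 8.14 and 5.92 CPM in aig2abc pad4, against 2.68, 3.45 and 2.93 CPM in pad4, and it was not called (log2 1.07 ± 0.31, edgeR adjusted p = 0.0706), except without Col-0 replicate 1, where the adjusted p was 0.0325. SYP122, a plasma membrane syntaxin encoded near PAD4, was higher in aig2abc pad4 (log2 1.51, edgeR adjusted p = 0.00418), and also in aig2abc over Col-0 (log2 2.16). The other tested genes among the 5 on either side of PAD4 had log2 fold changes of -0.62 to 0.33, with none called.

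Ethylene-response factors that drive defensin genes rose in aig2abc pad4. Of the 10 tested genes in a list of defence ERF factors, 7 were called higher and 0 lower, with a median log2 fold change of 1.67. ORA59, which integrates jasmonate and ethylene signals on defensin promoters, stood at 95.2, 107 and 126 CPM in aig2abc pad4, against 4.2, 6.09 and 3.86 CPM in pad4. Every aig2abc pad4 library stood far above every pad4 library, and the log2 fold change was 4.53 ± 0.31 (edgeR adjusted p = 5.16e-08). ERF2, an activator of the same box, stood at 94.5, 119 and 144 CPM in aig2abc pad4, against 20.9, 23.6 and 23.3 CPM in pad4 (log2 2.40 ± 0.26). ERF6, a substrate of defence MAP kinases, was called at lower levels, 14.3, 12.8 and 15.8 CPM in aig2abc pad4 against 4.2, 5.97 and 3.74 CPM in pad4 (log2 1.62 ± 0.33). Genes of ethylene synthesis and signalling themselves were not called, 0 of 11 in either direction, with a median of 0.63. Other fits gave the list 1 call higher with limma-voom, 1 with DESeq2, 3 with the main within-group axis as a covariate and 1 without aig2abc pad4 replicate 1. The whole-table counts of limma-voom, DESeq2 and the covariate fit are given below. In the main edgeR fit 1231 genes were higher and 843 lower at an unadjusted p under 0.05, a looser threshold than that of these calls. The smallest p in that list belonged to CTR1, the kinase that holds ethylene signalling off, with a log2 fold change of 0.82 and an adjusted p of 0.0633. Without aig2abc pad4 replicate 2 the count of defence ERF factors called was 4.

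The promoters shown here, of the factor ORA59, 2 defensins and a class III peroxidase, were picked because they hold a GCC box (GCCGCC, read on both strands), the element that ERF factors bind. Each run is the 250 bases before the annotated gene start in RefSeq TAIR10.1, 5′ to 3′ along the gene, with GCC boxes and W boxes (TTGACC or TTGACT, both strands, the element bound by WRKY factors) in capitals.
PDF1.2A, chr5:17907639-17907888, minus strand: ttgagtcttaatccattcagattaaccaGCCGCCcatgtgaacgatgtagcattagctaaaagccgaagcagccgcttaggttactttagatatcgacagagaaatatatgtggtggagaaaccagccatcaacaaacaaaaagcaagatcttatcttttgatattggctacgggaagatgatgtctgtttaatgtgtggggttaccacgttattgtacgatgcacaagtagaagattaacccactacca
PDF1.2B, chr2:11088873-11089122, plus strand: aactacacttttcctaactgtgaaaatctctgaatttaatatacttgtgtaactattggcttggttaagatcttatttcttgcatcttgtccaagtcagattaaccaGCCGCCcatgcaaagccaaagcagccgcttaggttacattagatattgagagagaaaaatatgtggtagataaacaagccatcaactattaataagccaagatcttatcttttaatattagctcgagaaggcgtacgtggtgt
ORA59, chr1:1882657-1882906, plus strand: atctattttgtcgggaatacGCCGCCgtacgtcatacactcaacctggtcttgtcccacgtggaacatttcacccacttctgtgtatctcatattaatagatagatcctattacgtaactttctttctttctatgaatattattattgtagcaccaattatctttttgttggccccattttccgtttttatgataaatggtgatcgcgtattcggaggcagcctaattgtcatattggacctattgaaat
AT4G08780, chr4:5603855-5604104, plus strand: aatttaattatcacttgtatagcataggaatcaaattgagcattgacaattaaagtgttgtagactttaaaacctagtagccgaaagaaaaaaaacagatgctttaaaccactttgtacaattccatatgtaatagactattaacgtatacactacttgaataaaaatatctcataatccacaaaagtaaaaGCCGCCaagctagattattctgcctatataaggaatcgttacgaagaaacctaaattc
A GCC box stood in the same window of 33 of 501 protein-coding genes called higher (6.59%), of 0 of 92 called lower, and of 292 of 14752 genes tested (1.98%). Among the 97 genes higher by 16-fold or more, 11 held one (11.3%). In PDF1.2A the box began 222 bases before the start and in PDF1.2B 143 bases before it. The windows of PDF1.1, PDF1.2C, PDF1.3, ERF2, ERF6 and PR4 held 0 GCC boxes. A match is a description of the letters, not evidence of binding.

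Defensins were among the largest gains of the comparison. These small cysteine-rich peptides are secreted and act against fungi. PDF1.2A stood at 4370, 3900 and 2730 CPM in aig2abc pad4, against 7.07, 8.96 and 4.45 CPM in pad4, a log2 fold change of 9.06 ± 0.45 (edgeR adjusted p = 2.08e-09). PDF1.2C stood at 4260, 3570 and 1770 CPM in aig2abc pad4, against 4.3, 4.02 and 2.93 CPM in pad4 (log2 9.73 ± 0.51). PDF1.3 stood at 1730, 1220 and 370 CPM in aig2abc pad4, against 0.956, 1.03 and 0.234 CPM in pad4 (log2 10.49 ± 0.65). In all 3 genes aig2abc pad4 replicate 3 was the lowest of its group and still stood far above every pad4 library. PDF1.1 and PDF1.2B had no counts in pad4, and against the limit set by 3 counts over the group they were at least 179-fold and 332-fold higher in aig2abc pad4. These 5 were the members called of 9 tested, with a list median of 9.06, and the copies are nearly identical, so the split of reads among them is uncertain. The list was chosen with its response already known and is not independent evidence.

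**Figure D2:**
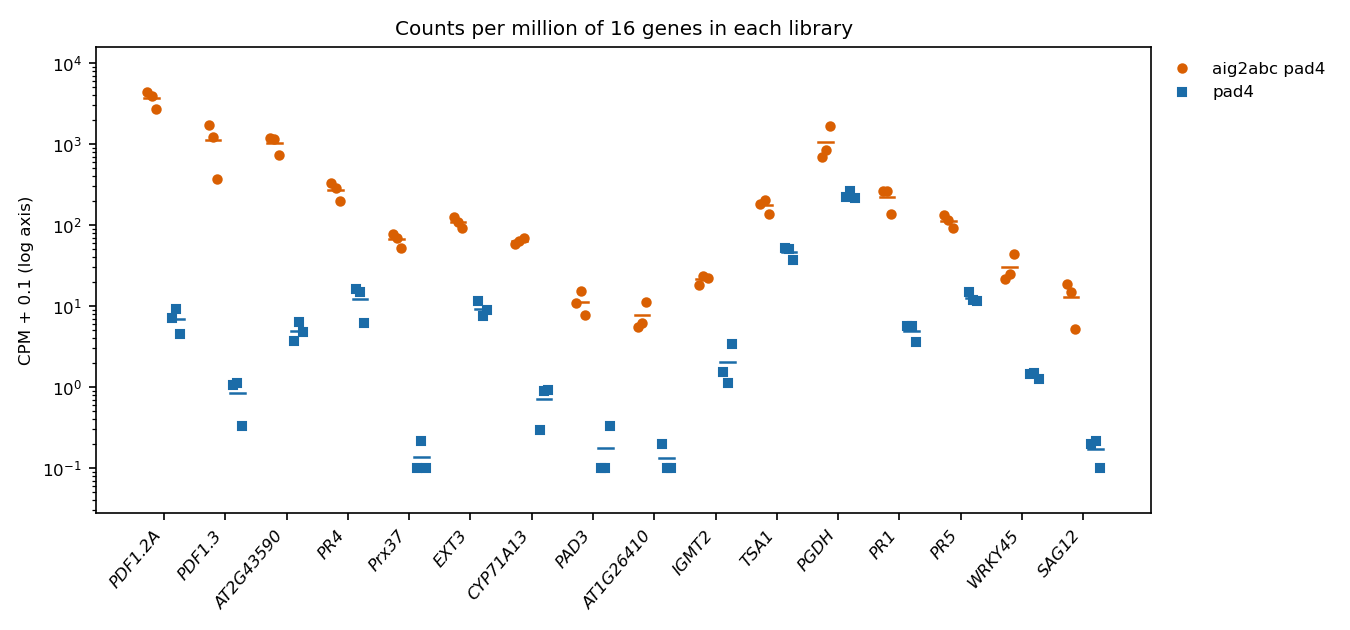
CPM plus 0.1 on a log axis for 16 genes, with each point a library and each bar the mean of 3, aig2abc pad4 in orange and pad4 in blue. For every gene drawn the 3 aig2abc pad4 libraries lay above the 3 pad4 libraries, from PDF1.2A at 2730 CPM or more down to SAG12 at 5.1 CPM or more.

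Secreted enzymes and some wall proteins rose with the defensins. Of 9 tested chitinases and glucanases, which degrade fungal walls, 7 were called higher and 0 lower, with a median log2 fold change of 3.86. AT2G43590, a chitinase family protein, stood at 1190, 1150 and 726 CPM in aig2abc pad4, against 3.63, 6.2 and 4.68 CPM in pad4 (log2 7.72 ± 0.41, edgeR adjusted p = 2.08e-09). PR4, a chitin-binding protein, stood at 334, 287 and 198 CPM in aig2abc pad4, against 15.9, 14.6 and 6.08 CPM in pad4 (log2 4.48 ± 0.48). Neither gene overlapped between the groups. BG3, a glucanase, was at 13.4, 11.8 and 11.2 CPM in aig2abc pad4 against 1.34, 0.46 and 1.05 CPM in pad4 (log2 3.63 ± 0.37). CHI, another chitinase in this list, had a log2 fold change of 4.23, and 5.29 without pad4 replicate 1. PR3, a basic chitinase at 4.14, 1.51 and 4.11 CPM in aig2abc pad4 and 0, 0.345 and 0 CPM in pad4, had a log2 fold change of 4.69, with 4.10 without pad4 replicate 1 and 7.46 without pad4 replicate 2.

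Class III peroxidases, which use hydrogen peroxide to cross-link wall polymers, were grouped by their RefSeq description after the values were seen. Of 24 tested, 9 were called higher and 0 lower. Prx37 stood at 77.6, 69.6 and 51.8 CPM in aig2abc pad4, against 0, 0.115 and 0 CPM in pad4. The pad4 group held 1 count in all, and the ratio of counts was 1900 with a 95% counting interval of 340 to 75000. Its neighbour in number, AT4G08780, stood at 20.7, 19.6 and 31.7 CPM in aig2abc pad4, against 0.0956, 0 and 0 CPM in pad4, a ratio of 645 (95% counting interval 115 to 25500.) PRXCA, at an intermediate level, stood at 112, 130 and 203 CPM in aig2abc pad4, against 11.5, 13.3 and 16.1 CPM in pad4 (log2 3.44 ± 0.32). AT4G37520 stood at 42.3, 44.8 and 52.0 CPM in aig2abc pad4, against 6.12, 4.6 and 5.62 CPM in pad4 (log2 3.08 ± 0.29). PRXR1, the most abundant peroxidase of the family, was not called and its groups overlapped, at 10800, 11500 and 27200 CPM in aig2abc pad4, against 12000, 15600 and 15400 CPM in pad4 (log2 0.20 ± 0.34). Extensins, the hydroxyproline-rich proteins that these enzymes can link, were also grouped after the values were seen and gave 3 called higher of 7 tested. Their median was -0.06, and only the 3 called had values above 0. EXT3 stood at 126, 108 and 90.6 CPM in aig2abc pad4, against 11.3, 7.35 and 8.89 CPM in pad4 (log2 3.56 ± 0.26), EXT4 had a log2 fold change of 3.06 ± 0.27, and AT2G43150, a proline-rich extensin-like protein, had 2.57 ± 0.29. Counting intervals cover counting error only. The fitted log2 value of Prx37 was 10.25, and 11.79 without pad4 replicate 2; that of AT4G08780 was 8.79, and 10.29 without pad4 replicate 1; those of DOX1, the alpha-dioxygenase that RefSeq lists as a peroxidase, were 5.50 and 7.0 without pad4 replicate 1; and that of AT4G11290 was 2.53, and 1.86 without aig2abc pad4 replicate 3.

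Part of the tryptophan pathway rose in aig2abc pad4. Of 12 tested genes of tryptophan synthesis 6 were called higher and 0 lower, with a median log2 fold change of 1.25. TSA1, the alpha chain of tryptophan synthase, stood at 182, 202 and 138 CPM in aig2abc pad4, against 52.2, 50.3 and 37.1 CPM in pad4 (log2 1.90 ± 0.25, edgeR adjusted p = 8.5e-05). ASB1, a beta subunit of anthranilate synthase, which opens the pathway, stood at 42.8, 35.9 and 37.8 CPM in aig2abc pad4, against 10.4, 8.04 and 14.6 CPM in pad4 (log2 1.82 ± 0.28). Its partner ASA1 had 23.9, 20.6 and 8.88 CPM in aig2abc pad4, against 6.78, 2.07 and 3.51 CPM in pad4 (log2 2.1 ± 0.43), and lost its call without pad4 replicate 2 (adjusted p = 0.0502). AT2G04400, the locus listed for indole-3-glycerol phosphate synthase, had a log2 fold change of 1.92 ± 0.27. Without pad4 replicate 2 the count called was 3. PGDH, the D-3-phosphoglycerate dehydrogenase that begins plastid serine synthesis, stood at 690, 831 and 1660 CPM in aig2abc pad4, against 224, 265 and 216 CPM in pad4 (log2 2.17 ± 0.35). Tryptophan synthase consumes serine, but a link between the 2 pathways was not tested. Of 7 tested genes of this serine pathway, grouped by product after the values were seen, 2 were called higher and 0 lower, with a median of 0.04.

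W boxes were found more often upstream of the genes called higher. The 4 promoters shown are from a WRKY factor, 2 tryptophan genes and an oxidase gene of the same branch, with W boxes and GCC boxes again in capitals. Each of the 4 holds 2 or 3 W boxes, so they do not stand for the other genes.
WRKY33, chr2:16107985-16108234, plus strand: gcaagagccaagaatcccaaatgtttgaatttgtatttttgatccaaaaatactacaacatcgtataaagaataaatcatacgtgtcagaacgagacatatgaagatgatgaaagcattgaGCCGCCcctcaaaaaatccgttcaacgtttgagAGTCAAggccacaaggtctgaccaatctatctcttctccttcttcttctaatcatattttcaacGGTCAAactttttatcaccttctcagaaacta
ASB1, chr1:8839610-8839859, minus strand: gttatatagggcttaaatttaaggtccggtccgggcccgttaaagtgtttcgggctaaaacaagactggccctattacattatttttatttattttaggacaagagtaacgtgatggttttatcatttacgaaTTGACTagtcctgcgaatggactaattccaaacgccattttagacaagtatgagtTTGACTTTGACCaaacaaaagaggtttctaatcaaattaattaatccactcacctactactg
TSA1, chr3:20225524-20225773, minus strand: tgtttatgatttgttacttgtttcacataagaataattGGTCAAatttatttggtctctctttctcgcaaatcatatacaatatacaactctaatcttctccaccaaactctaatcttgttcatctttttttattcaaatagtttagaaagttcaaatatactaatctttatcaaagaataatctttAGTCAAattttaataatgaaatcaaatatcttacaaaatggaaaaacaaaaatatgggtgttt
AT1G26420, chr1:9143337-9143586, minus strand: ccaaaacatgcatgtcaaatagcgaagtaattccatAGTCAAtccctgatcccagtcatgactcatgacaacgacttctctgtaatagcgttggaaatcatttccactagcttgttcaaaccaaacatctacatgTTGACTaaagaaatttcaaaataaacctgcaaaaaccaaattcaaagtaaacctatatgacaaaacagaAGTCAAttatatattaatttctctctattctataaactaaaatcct
In the same window, 219 of 501 genes called higher held a W box (43.7%), against 26 of 92 called lower (28.3%) and 4091 of 14752 tested (27.7%). Of the 97 genes higher by 16-fold or more, 51 held one (52.6%). WRKY33, the main activator of camalexin genes, held 1 GCC box and 2 W boxes. Among other genes of the camalexin list, the windows of CYP71A12, CYP71A13, PAD3, ABCG40, CYP79B2 and CYP79B3 held 0 W boxes. Those of GSTF6 and GSTU4 held 1 each. A further element, TGACG, the core bound by TGA factors, was added after these values were known and stood in 25.9% of promoters of higher genes, 15.2% of those of lower genes and 19.4% of those tested.

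Camalexin, the main phytoalexin of Arabidopsis, had most of its pathway called. Of 11 tested genes 8 were higher and 0 lower, with a median log2 fold change of 4.25. CYP71A13, which turns indole-3-acetaldoxime into the nitrile, stood at 58.9, 63.7 and 69.9 CPM in aig2abc pad4, against 0.191, 0.804 and 0.819 CPM in pad4 (log2 6.73 ± 0.42, edgeR adjusted p = 1.48e-08). PAD3, which completes camalexin, stood at 10.9, 15.2 and 7.56 CPM in aig2abc pad4, against 0, 0 and 0.234 CPM in pad4, a ratio of counts of 156 (95% counting interval 42.7 to 1290.) Both were close to absent in pad4. GSTF6, a transferase that adds glutathione on this route, stood at 97.8, 111 and 48.5 CPM in aig2abc pad4, against 3.82, 6.55 and 3.16 CPM in pad4 (log2 4.25 ± 0.42). WRKY33 was at 12.8, 6.78 and 8.55 CPM in aig2abc pad4, against 1.82, 2.3 and 2.34 CPM in pad4 (log2 2.13 ± 0.33). ABCG40, a transporter of camalexin, stood at 23.9, 21.1 and 5.1 CPM in aig2abc pad4, against 0.287, 0.23 and 0.585 CPM in pad4 (log2 5.47 ± 0.64). CYP79B2, which makes the shared oxime, was called (17, 16.6 and 21.9 CPM in aig2abc pad4, 5.06, 9.54 and 5.62 CPM in pad4, log2 1.46 ± 0.33), while its twin CYP79B3 was not and its groups overlapped (14.2, 10.4 and 4.93 CPM in aig2abc pad4, 10.9, 10.3 and 7.14 CPM in pad4). The CYP79B2 call was lost without pad4 replicate 1 (adjusted p = 0.0734) and without pad4 replicate 3 (0.0743). The fitted log2 value of PAD3 was 6.95, and 9.23 without pad4 replicate 3. CYP71A12 and CYP71A13 are close copies with an uncertain split, and CYP71A12 had a log2 fold change of 4.31, 3.71 without aig2abc pad4 replicate 1 and 5.89 without pad4 replicate 1.

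The branch to indole carbonylnitriles and indole carboxylates was called throughout. All 6 tested genes were higher, with a median log2 fold change of 4.66, and all 6 were also called higher in aig2abc against Col-0, where 18.0% of genes tested were. The FAD-linked oxidases of this family sit side by side on chromosome 1. AT1G26390 stood at 9.91, 13.4 and 15.5 CPM in aig2abc pad4, against 0.287, 0.115 and 0.234 CPM in pad4 (log2 5.78 ± 0.45). AT1G26420 stood at 6.54, 8.14 and 11.7 CPM in aig2abc pad4, against 0.191, 0.46 and 0.585 CPM in pad4 (log2 4.38 ± 0.44). AT1G26410 had 5.48, 6.03 and 11.2 CPM in aig2abc pad4 and 1 count in pad4, a ratio of 198 (95% counting interval 35 to 7860.) AT1G26380, another oxidase of this family, had 4.04, 4.97 and 2.47 CPM in aig2abc pad4 and 0.0956, 0 and 0.234 CPM in pad4, a ratio of 36 (95% counting interval 11.9 to 178.) AAO1, an aldehyde oxidase of the carboxylate branch, stood at 35.7, 40.8 and 114 CPM in aig2abc pad4, against 9.56, 13 and 11.7 CPM in pad4 (log2 2.48 ± 0.42), with replicate 3 the highest and a log2 of 1.75 without it. CYP71B6, which makes indole-3-carbaldehyde, had a log2 fold change of 1.5 ± 0.23. The fitted value of AT1G26410 was 7.12, and 8.61 without pad4 replicate 1, and that of AT1G26380 was 4.93, and 5.78 without pad4 replicate 3.

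Indole glucosinolates gave 10 called higher of 19 tested and 0 lower, with a median of 1.06. The calls included the regulator and the enzymes that modify the ring. MYB51, an activator of the pathway, stood at 22.2, 23.1 and 42.1 CPM in aig2abc pad4, against 3.06, 5.63 and 4.45 CPM in pad4 (log2 2.73 ± 0.36). IGMT2, a methyltransferase of the indole ring, stood at 18, 23.5 and 21.9 CPM in aig2abc pad4, against 1.43, 1.03 and 3.28 CPM in pad4 (log2 3.47 ± 0.38, and 4.07 without pad4 replicate 3). MYB122, another activator, had no counts in pad4 and was at least 13.2-fold higher in aig2abc pad4. PEN3, the transporter that exports defence compounds at penetration sites, had a log2 fold change of 1.33 ± 0.28. IGMT1, IGMT2 and IGMT3 lie together and are close copies, and IGMT1 had a log2 of 3.94, 4.62 without pad4 replicate 1. CYP81F2, which prepares the ring for them, had 4.18, 3.58 without pad4 replicate 1 and 6.95 without pad4 replicate 3. Aliphatic glucosinolate genes did not move with these: 0 of 24 were called, the median was -0.56 and 5 of 24 values were above 0. In 12 of the 24 every aig2abc pad4 library lay below every pad4 library, as in 8.18% of all genes tested. With the within-group axis as a covariate 7 were called lower, as were 650 of the 15082 genes tested with all libraries. The smallest p among the 24 aliphatic genes was that of MYB28, the main aliphatic activator, at 11.4, 14.8 and 13.0 CPM in aig2abc pad4 and 21.1, 25.6 and 28.1 CPM in pad4 (log2 -0.94 ± 0.26, edgeR adjusted p = 0.0515, and 0.042 without Col-0 replicate 1).

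**Figure D3:**
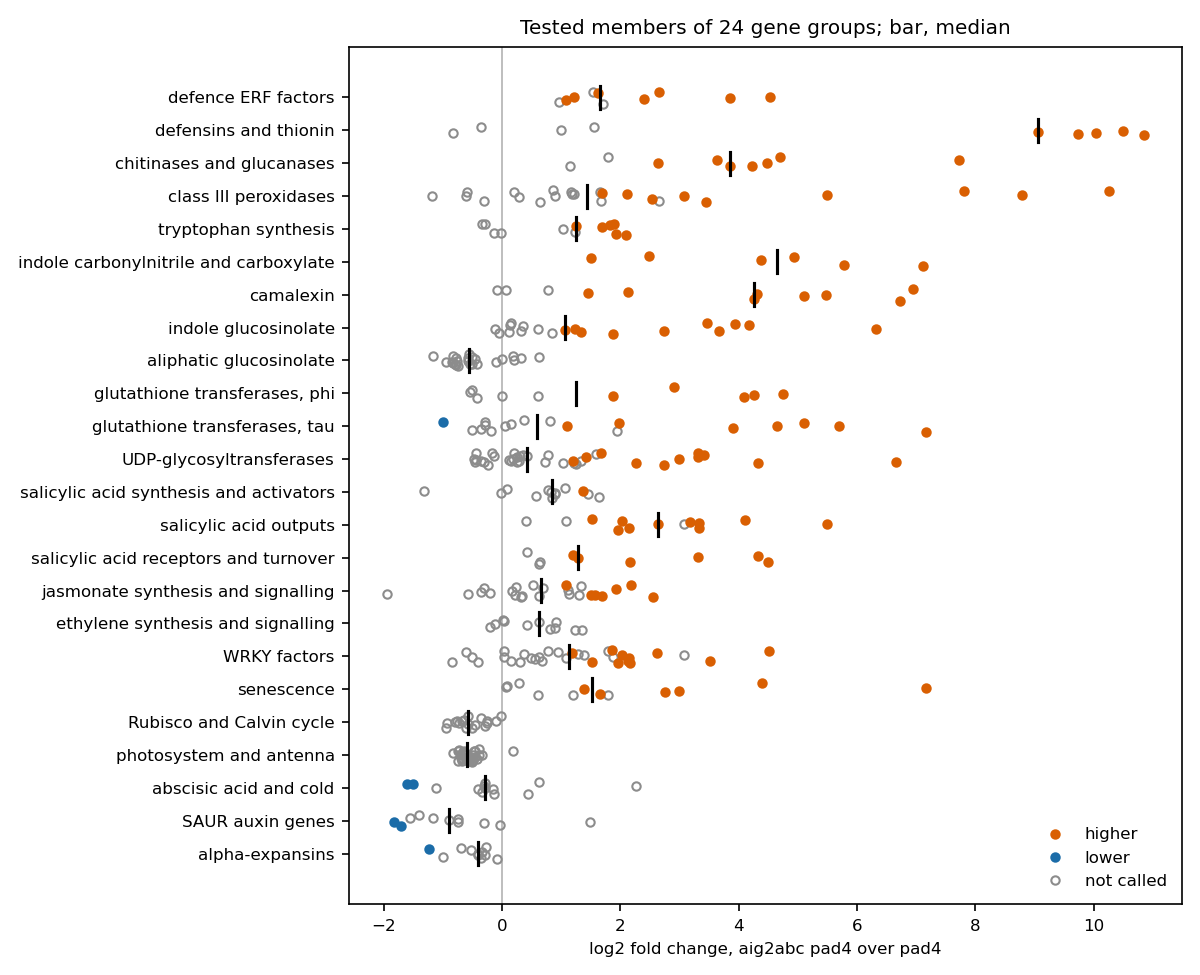
Each point is the log2 fold change of a tested gene, aig2abc pad4 over pad4, in 24 groups of genes, with filled points for genes called higher (orange) or lower (blue), open points for genes not called and a bar at the median. The medians ran from 9.06 for defensins to -0.89 for SAUR auxin genes, and 0 of 34 photosystem and antenna genes were called.

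Enzymes that handle reactive and foreign compounds rose in part. Phi-class glutathione transferases gave 5 called higher of 10 tested, and the tau class gave 7 higher and 1 lower of 18. GSTF2 stood at 2000, 2030 and 3780 CPM in aig2abc pad4, against 241, 462 and 342 CPM in pad4 (log2 2.90 ± 0.33), and GSTF10, a transferase with a role in glucosinolate synthesis, stood at 1750, 1950 and 1450 CPM in aig2abc pad4, against 529, 478 and 397 CPM in pad4 (log2 1.88 ± 0.26). Of the tau class, GSTU4 stood at 38.7, 47.6 and 52.6 CPM in aig2abc pad4, against 0.669, 1.26 and 2.11 CPM in pad4 (log2 5.11 ± 0.36). GSTU10 had no counts in pad4 and was at least 22.8-fold higher in aig2abc pad4. The groups did not overlap in any of these 4 genes. GSH2, the second enzyme of glutathione synthesis, was at 103, 107 and 54.9 CPM in aig2abc pad4, against 34.5, 29.5 and 26.1 CPM in pad4 (log2 1.56 ± 0.27), 1 of 2 genes called higher of 20 in sulfate assimilation and glutathione. The other was APR3, an APS reductase (log2 1.16 ± 0.24), whose call was lost without aig2abc pad4 replicate 2 (adjusted p = 0.0646). The count in that list was 1 without aig2abc pad4 replicate 2, 4 without aig2abc pad4 replicate 3 and 5 with the within-group axis as a covariate. UDP-glycosyltransferases gave 11 called higher of 37 tested, and UGT71C3, which acts on methyl salicylate, stood at 30.8, 29.7 and 24.2 CPM in aig2abc pad4, against 2.01, 1.15 and 0.936 CPM in pad4 (log2 4.33 ± 0.34). Cytochromes P450 gave 16 higher of 86 and 0 lower. GSTU18 was the tau member called lower, at 22.2, 21.2 and 12.7 CPM in aig2abc pad4 and 43.4, 40.2 and 28.1 CPM in pad4, and its call was lost in 10 of 12 omissions, with adjusted p up to 0.16, without pad4 replicate 2.

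Calls among salicylic acid genes were mostly for outputs and turnover. Of 13 tested genes for synthesis and its activators 1 was called, CBP60G, whereas 10 of 13 output genes and 6 of 9 receptor and turnover genes were called higher. The list medians were 0.84 for synthesis, 2.63 for outputs and 1.28 for receptors and turnover, and the difference between lists was not tested. ICS1, the enzyme of salicylic acid synthesis, stood at 11.3, 14.2 and 25 CPM in aig2abc pad4, against 6.31, 9.42 and 11.1 CPM in pad4, without overlap and without a call (log2 0.90 ± 0.35, edgeR adjusted p = 0.207). FMO1, which makes N-hydroxypipecolic acid, had no counts in either group, and ALD1, which opens that route, had 0.866, 0.904 and 0 CPM in aig2abc pad4 and no counts in pad4. CBP60G, an activator of ICS1, was at 5.97, 4.67 and 4.6 CPM in aig2abc pad4, against 2.48, 1.61 and 1.76 CPM in pad4 (log2 1.37 ± 0.36), and its call was lost in 6 of 12 omissions: without any 1 of aig2abc pad4 replicates 1 and 2 and the 3 pad4 libraries, and without aig2abc replicate 3, with adjusted p up to 0.172. Without aig2abc pad4 replicate 3 the synthesis list gave 3 calls, and without Col-0 replicate 1 it gave 2.

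Output genes reached levels well over pad4. PR1, the classic marker of salicylic acid signalling, stood at 259, 263 and 136 CPM in aig2abc pad4, against 5.54, 5.52 and 3.51 CPM in pad4 (log2 5.49 ± 0.40, edgeR adjusted p = 7.76e-08). PR5, a thaumatin-like protein, stood at 132, 115 and 92.6 CPM in aig2abc pad4, against 14.6, 11.8 and 11.4 CPM in pad4 (log2 3.17 ± 0.39). PR2, a glucanase, stood at 64.4, 75.2 and 67.1 CPM in aig2abc pad4, against 10.7, 12.9 and 9.71 CPM in pad4 (log2 2.63 ± 0.36). No library of one group reached the other in these 3 genes. PNP-A, a secreted natriuretic peptide, had a log2 fold change of 3.33 ± 0.41, and WRKY70, a factor that favours salicylic acid over jasmonate outputs, had 1.52 ± 0.31, with its call lost without aig2abc pad4 replicate 2 (adjusted p = 0.0524). GRXS13, a glutaredoxin, had 3.33, and 4.16 without pad4 replicate 1. Among genes that remove salicylic acid, DMR6, its 5-hydroxylase, stood at 52.9, 58.6 and 59.2 CPM in aig2abc pad4, against 8.98, 15.2 and 13.8 CPM in pad4 (log2 2.17 ± 0.32). DLO1, a related hydroxylase, stood at 1.44, 3.16 and 1.48 CPM in aig2abc pad4, against 0.0956, 0.115 and 0 CPM in pad4, a ratio of counts of 27 (95% counting interval 7.05 to 230.) UGT76B1, which glucosylates N-hydroxypipecolic acid and salicylic acid, had a log2 fold change of 3.32 ± 0.56. NPR3, a salicylic acid receptor that represses outputs, had 1.28 ± 0.26.

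Jasmonate genes gave 7 called higher of 24 tested and 0 lower, with a median of 0.67. AOC3, an allene oxide cyclase of jasmonate synthesis, stood at 11.4, 18 and 27.3 CPM in aig2abc pad4, against 2.48, 3.22 and 3.86 CPM in pad4 (log2 2.55 ± 0.33). TAT3, a tyrosine aminotransferase induced by jasmonate, had 2.18 ± 0.37, and CLH1, a chlorophyllase, had 1.5 ± 0.29. ST2A, which sulfates a jasmonate derivative, was called (log2 1.92), and lost its call without aig2abc pad4 replicate 1, aig2abc pad4 replicate 2 or pad4 replicate 2 (adjusted p of 0.056, 0.0915 and 0.0894). The count called was 3 without aig2abc pad4 replicate 1, 3 without aig2abc pad4 replicate 2, 4 without pad4 replicate 1 and 3 without pad4 replicate 2.

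Of 32 tested WRKY factors 11 were called higher and 0 lower, with a median of 1.14. WRKY45 stood at 21.7, 24.7 and 43.6 CPM in aig2abc pad4, against 1.34, 1.38 and 1.17 CPM in pad4 (log2 4.51 ± 0.35, edgeR adjusted p = 1.82e-07). WRKY50 was at 7.02, 8.59 and 7.07 CPM in aig2abc pad4, against 1.53, 1.03 and 1.05 CPM in pad4 (log2 2.62 ± 0.43), and WRKY51 and WRKY40 had log2 fold changes of 3.51 ± 0.64 and 2.16 ± 0.40. Without pad4 replicate 2 the count called was 7.

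Receptors at the cell surface were called in shares that differed by family. Of 20 genes for pattern receptors and early signalling 3 were called, with a median of 0.65: NHL10, a gene induced early in pattern recognition, which had no counts in pad4 and was at least 29.6-fold higher in aig2abc pad4; MKK9, a MAP kinase kinase (log2 1.95 ± 0.37); and SOBIR1, the partner kinase of receptor-like proteins. SOBIR1 had a log2 of 1.2 ± 0.27 and lost its call without aig2abc pad4 replicates 1 or 2 or pad4 replicates 1 or 2, with adjusted p of 0.0619 to 0.121. Receptor-like proteins gave 6 higher of 27. RLP23, which recognises a peptide of necrosis-inducing proteins and works with SOBIR1, stood at 34.2, 36.5 and 42.4 CPM in aig2abc pad4, against 5.92, 4.37 and 8.54 CPM in pad4 (log2 2.58 ± 0.35). Of 6 tested wall-associated kinases 4 were called, among them WAK3 at 4.14, 6.33 and 4.77 CPM in aig2abc pad4 and 0.382, 0.345 and 0.468 CPM in pad4 (log2 3.61 ± 0.45). That count was 2 without aig2abc pad4 replicate 1, aig2abc pad4 replicate 2 or pad4 replicate 2. Cysteine-rich receptor-like kinases gave 4 of 20, and 2 without aig2abc pad4 replicate 2 or pad4 replicate 2. CRK7 had 1.92, 2.26 and 1.97 CPM in aig2abc pad4 and 0, 0 and 0.234 CPM in pad4 (ratio of counts 28.2, 95% counting interval 7.38 to 240), with a fitted log2 of 4.5, and 6.79 without pad4 replicate 3. CML41, a calmodulin-like protein of plasmodesmata, stood at 29.0, 38.6 and 31.7 CPM in aig2abc pad4, against 1.05, 0.23 and 0.585 CPM in pad4 (log2 5.65 ± 0.47, and 6.28 without pad4 replicate 1). AT3G16530, a legume lectin family protein, was called at a high level, 505, 495 and 470 CPM in aig2abc pad4 and 33.2, 28.2 and 35.6 CPM in pad4 (log2 3.92 ± 0.29).

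Markers of leaf senescence gave 6 called higher of 12 tested, with a median of 1.51. SAG13, a dehydrogenase-like gene, stood at 90, 100 and 97.4 CPM in aig2abc pad4, against 5.35, 4.14 and 4.1 CPM in pad4 (log2 4.39 ± 0.36). SAG12, the cysteine protease of late senescence, stood at 18.6, 14.9 and 5.1 CPM in aig2abc pad4, against 0.0956, 0.115 and 0 CPM in pad4, a ratio of counts of 194 (95% counting interval 53.2 to 1610.) SAG21, a mitochondrial late embryogenesis protein, stood at 285, 308 and 233 CPM in aig2abc pad4, against 41.3, 38.6 and 24 CPM in pad4 (log2 2.99 ± 0.26). The groups stood apart in all 3 genes. ORE1, a NAC factor that drives senescence, was called at log2 1.38 ± 0.33, and lost its call without any 1 of aig2abc pad4 replicates 1 and 2 and the 3 pad4 libraries, with adjusted p of 0.065 to 0.0935.

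The largest other gains included genes with little or no count in pad4. MRD1 stood at 199, 222 and 450 CPM in aig2abc pad4, against 1.24, 1.26 and 0.819 CPM in pad4 (log2 8.0 ± 0.42, edgeR adjusted p = 2.08e-09). PXMT1, a methyltransferase, stood at 160, 169 and 305 CPM in aig2abc pad4, against 0.382, 1.03 and 0.702 CPM in pad4 (log2 8.21 ± 0.54). DIN11, a 2-oxoglutarate-dependent oxygenase, stood at 114, 121 and 21.4 CPM in aig2abc pad4, against 0.382, 0.345 and 0.351 CPM in pad4 (log2 7.82 ± 0.81), with replicate 3 again the lowest of its group. AT4G33720, a CAP-domain secretory protein, had no counts in pad4 and was at least 73.2-fold higher in aig2abc pad4, and AT3G03670, a peroxidase, was at least 36.4-fold higher against no counts in pad4. AT1G59950, an NAD(P)-linked oxidoreductase, had a ratio of counts of 408 (95% counting interval 112 to 3370), with a fitted log2 of 8.30, and 10.53 without pad4 replicate 1.

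Genes called lower were fewer and changed less, and 15 of the 100 calls held in every omission of 1 library. Besides AIG2B and AIG2C, those with the largest folds at a fixed minimum level included MES18, a methyl esterase (log2 -2.62 ± 0.55, call lost without aig2abc pad4 replicate 1, adjusted p = 0.055), and AT2G27420, a cysteine proteinase family gene (-2.00 ± 0.50), whose call was lost without aig2abc pad4 replicate 1, pad4 replicate 1 or pad4 replicate 3 (adjusted p of 0.19, 0.0771 and 0.0892) and whose log2 was -2.64 without aig2abc pad4 replicate 2. ADS1, a fatty acid desaturase, stood at 10.6, 13.4 and 29.4 CPM in aig2abc pad4, against 52.5, 79.7 and 69.4 CPM in pad4 (log2 -1.93 ± 0.37, edgeR adjusted p = 0.00426). ACA1, the alpha carbonic anhydrase, stood at 2.02, 1.81 and 2.14 CPM in aig2abc pad4, against 4.4, 13.2 and 9.01 CPM in pad4 (log2 -2.14 ± 0.42). KIN2, a cold- and abscisic acid-induced protein, stood at 465, 455 and 593 CPM in aig2abc pad4, against 1480, 1880 and 945 CPM in pad4 (log2 -1.51 ± 0.28). All 3 calls held in every omission and the groups did not overlap. KIN2 and KIN1 were the genes called among 13 of abscisic acid and cold, and KIN1 lost its call in 5 of 12 omissions, with adjusted p up to 0.232 without aig2abc pad4 replicate 2. Its log2 fold change was -1.61.

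SAUR genes, small auxin-induced genes of expanding tissue, gave 2 called lower of 11 tested and 0 higher, with a median of -0.89. SAUR20 stood at 12.5, 15.2 and 6.08 CPM in aig2abc pad4, against 51.7, 46.0 and 22.6 CPM in pad4 (log2 -1.82 ± 0.35). SAUR22 stood at 5, 6.48 and 2.63 CPM in aig2abc pad4, against 20.8, 15.6 and 9.71 CPM in pad4 (log2 -1.70 ± 0.35). In both genes replicate 3 was the lowest library of each group, and the groups did not overlap. EXPA11, an expansin that loosens walls, stood at 20, 19 and 17.3 CPM in aig2abc pad4, against 49.2, 52.6 and 30.4 CPM in pad4, 1 gene called lower of 11 alpha-expansins (log2 -1.23 ± 0.27), and its call was lost without aig2abc pad4 replicate 2 (adjusted p = 0.064) or pad4 replicate 2 (0.0704). CER1, an enzyme of cuticular alkane synthesis and an epidermis marker, stood at 12.1, 9.49 and 9.21 CPM in aig2abc pad4, against 26.0, 39.8 and 23.9 CPM in pad4 (log2 -1.53 ± 0.28). Of the 4 epidermis markers CER1 and PDF1, protodermal factor 1, were called lower and 0 higher. PDF1 had a log2 of -1.01, and its call was lost in 8 of 12 omissions, with adjusted p up to 0.203 without pad4 replicate 2. The summed CPM of the 4 markers was 135 to 233 in aig2abc pad4 and 183 to 318 in pad4, and the part of epidermis in these results was not tested.

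Photosynthesis transcripts had negative log2 fold changes in nearly every gene, and few passed the test. Of 34 photosystem and antenna genes 0 were called, with a median of -0.59 and 1 value above 0, and of 18 genes of Rubisco and the Calvin cycle 0 were called, with a median of -0.57 and 0 values above 0. DESeq2 called 1 of the photosystem genes and 4 of the Calvin cycle genes lower, and its count over the whole table is given below with the other fits. The edgeR test had 843 lower genes at an unadjusted p under 0.05, another test and a looser threshold than those of the DESeq2 calls. With the main within-group axis as a covariate 11 and 7 were called lower. That axis was taken from these same libraries, and with it 650 of the 15082 genes tested with all libraries were lower, against 100. Without aig2abc pad4 replicate 3 the photosystem and Calvin cycle calls were 3 and 2. In 14 of the 34 photosystem genes and 8 of the 18 Calvin cycle genes every aig2abc pad4 library lay below every pad4 library, against 8.18% of all genes tested. The summed CPM of the photosystem genes was 112000, 116000 and 137000 in aig2abc pad4 and 177000, 224000 and 153000 in pad4, without overlap. PSI-P, a photosystem I subunit that its symbol kept out of this group, was called (log2 -0.92 ± 0.25, edgeR adjusted p = 0.0487), and lost its call in 11 of 12 omissions, with adjusted p up to 0.257, without pad4 replicate 2. CA1, the chloroplast carbonic anhydrase, stood at 599, 532 and 367 CPM in aig2abc pad4, against 1120, 1280 and 749 CPM in pad4 (log2 -1.07 ± 0.28, edgeR adjusted p = 0.0351). CAT2, the peroxisomal catalase of photorespiration, stood at 234, 213 and 204 CPM in aig2abc pad4, against 395, 407 and 374 CPM in pad4 (log2 -0.86 ± 0.22, adjusted p = 0.0314). GLDP1, a subunit of glycine decarboxylase in the same cycle, stood at 446, 409 and 437 CPM in aig2abc pad4, against 565, 1300 and 753 CPM in pad4 (log2 -1.02 ± 0.28, adjusted p = 0.0494). Among other abundant chloroplast and wall genes, CSP41A, a chloroplast RNA-binding protein, was lower (log2 -1.10 ± 0.27), as were AGP21, an arabinogalactan protein (-1.25 ± 0.29), and GAMMA-TIP, a tonoplast aquaporin (-1.01 ± 0.26). The CSP41A and AGP21 calls were lost without aig2abc pad4 replicate 1, aig2abc pad4 replicate 2 or pad4 replicate 2, with adjusted p of 0.12, 0.179 and 0.154 for CSP41A and 0.0828, 0.127 and 0.119 for AGP21. The GAMMA-TIP call was lost in 7 of 12 omissions, with adjusted p up to 0.199 without aig2abc pad4 replicate 2. For CA1, CAT2 and GLDP1 the groups did not overlap, yet each of these calls was lost in 9 of 12 omissions, Col-0 and aig2abc libraries included, with adjusted p up to 0.169 for CA1 without pad4 replicate 2, up to 0.194 for CAT2 without aig2abc pad4 replicate 2 and up to 0.346 for GLDP1 without pad4 replicate 2, where its log2 was -0.61. The antenna gene LHCB5 overlapped, at 1890, 1690 and 810 CPM in aig2abc pad4 and 2670, 2300 and 1650 CPM in pad4.

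**Figure D4:**
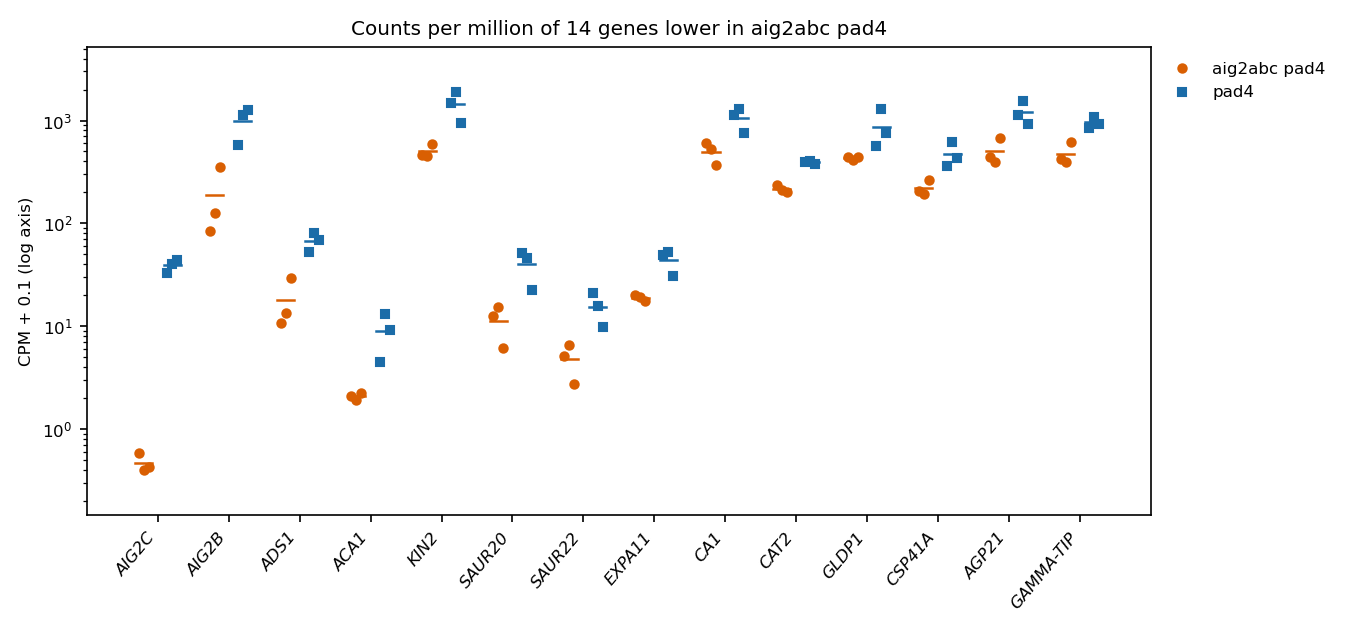
CPM plus 0.1 on a log axis for 14 genes called lower, with each point a library and each bar the mean of 3, aig2abc pad4 in orange and pad4 in blue. No gene drawn overlapped between the groups, and AIG2C and AIG2B differed most, by fitted folds of 96.5 and 5.28.

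Flavonoid genes (0 of 12 called), iron homeostasis (0 of 11), the clock (0 of 11), protein folding in the endoplasmic reticulum (0 of 14) and myrosinases (0 of 7) showed no call with the edgeR test in the fit of all libraries, where 4.0% of all genes tested were called in either direction, so a count of 0 says little in lists of this size. Over all genes tested, the edgeR test had 1231 higher and 843 lower at an unadjusted p under 0.05, a looser threshold than that of the calls. The whole-table counts of DESeq2 are given below. DESeq2 called 1 flavonoid gene lower and 1 folding gene higher. With the within-group axis as a covariate 3 flavonoid genes and 1 iron gene were lower, and 2 iron and 2 folding genes higher. Without aig2abc pad4 replicate 3, 2 flavonoid genes and 1 iron gene were lower, and 1 iron and 1 folding gene higher, and without pad4 replicate 3, 1 flavonoid gene was lower. All 14 folding genes had log2 fold changes above 0, with a median of 0.52. In 5 of them every aig2abc pad4 library lay above every pad4 library, as in 10.1% of all genes tested. The medians were -0.27 for flavonoid genes, 0.04 for iron, -0.02 for the clock and -0.28 for myrosinases. A miss of the threshold does not show that these genes did not differ.

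The interaction contrast tested whether the change without PAD4 differed from the change with PAD4, that is, aig2abc pad4 over pad4 against aig2abc over Col-0, which share no library. Of the 503 genes called higher, 325 were also called higher in aig2abc against Col-0 and 7 were called lower there, where 18.0% of all genes tested were called higher and 19.5% lower. The interaction was called for 121 of the 503 with the gain larger without PAD4 and for 9 with the gain smaller, while 8.53% and 6.23% of all genes tested had such calls. The 503 were chosen by the aig2abc pad4 over pad4 change, which is itself a term of the interaction, so nothing is read from the balance of these counts. PR1 stood out in this test, with a log2 fold change of 5.49 here and 1.06 in aig2abc over Col-0, a difference of 4.43 ± 0.49 (edgeR adjusted p = 0.000408). AT3G18250, a putative membrane lipoprotein, stood at 84.6, 92.2 and 44.1 CPM in aig2abc pad4, against 3.73, 3.1 and 1.64 CPM in pad4, with log2 fold changes of 4.69 here and -0.22 in aig2abc over Col-0 (difference 4.91 ± 0.51). AT3G15356, a legume lectin, stood at 2020, 1750 and 377 CPM in aig2abc pad4, against 67.7, 27.5 and 23.1 CPM in pad4, with 5.13 here, 5.77 without pad4 replicate 1, and 0.06 there (difference 5.07 ± 0.87). PNP-A, PR5, DLO1 and AT3G22600, a lipid-transfer protein, likewise had interaction calls that held in every omission, with differences of 3.40, 2.69, 5.48 and 4.10. A difference of this kind depends on 4 groups, and the pad4 and Col-0 levels of these genes enter it. PR1 averaged 219 ± 72 CPM in aig2abc pad4 and 4.86 ± 1.17 CPM in pad4, while it averaged 322 ± 59.8 CPM in aig2abc and 155 ± 63.7 CPM in Col-0 (SD, n = 3 each).

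Many of the larger gains had no interaction call, which does not show that they were alike. MRD1 had log2 fold changes of 8.0 here and 7.94 in aig2abc over Col-0, a difference of 0.06 (adjusted p = 0.939), and WRKY45 had 4.51 here and 4.35 there, a difference of 0.16 (0.832). ORA59 differed by 0.55 (0.348) and MYB51 by -0.75 (0.3). ICS1 ran the other way, with 0.90 here and 2.43 in aig2abc over Col-0 and a difference of -1.53 ± 0.49 (adjusted p = 0.0449), a call lost in 9 of 12 omissions, with adjusted p up to 0.142 without aig2abc pad4 replicate 1. Of the 100 genes called lower here, 67 were also called lower in aig2abc against Col-0 and 0 were called higher. AIG2B was not among those, with -2.40 here and -0.12 there, a difference of -2.28 ± 0.61 (adjusted p = 0.0272), lost in 8 of 12 omissions. The interaction counts moved widely with single libraries, from 323 to 2443 higher and from 89 to 2145 lower.

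**Figure D5:**
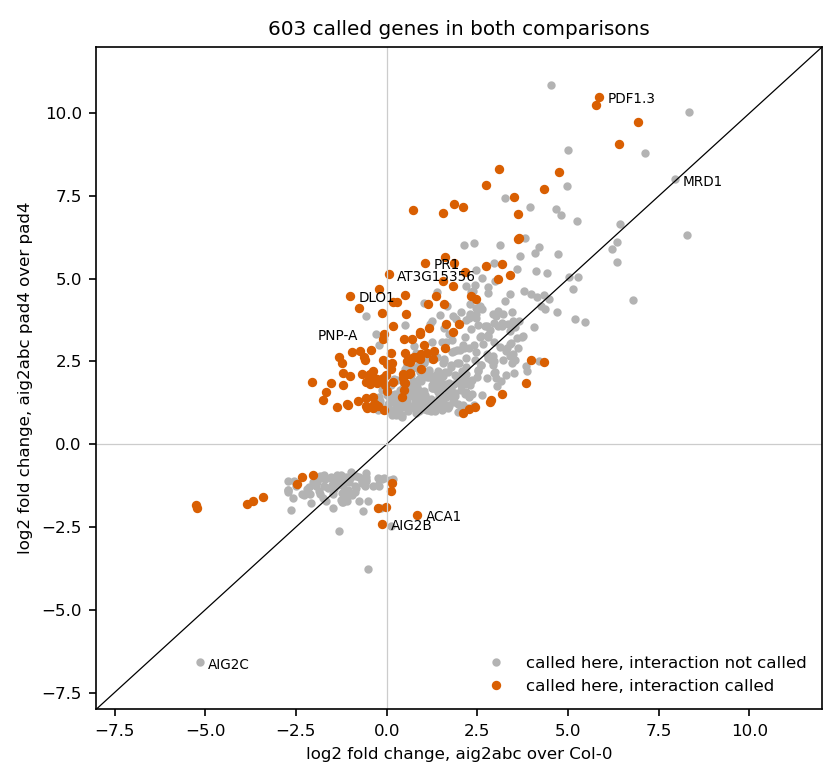
Each point is 1 of the 603 genes called in aig2abc pad4 over pad4, with its log2 fold change there on the vertical axis and in aig2abc over Col-0 on the horizontal axis, and orange marks an interaction call. PR1, PDF1.3, DLO1 and AT3G15356 lie above the line of equal change, and MRD1 lies on it.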

How the data were processed

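The authors deposited 1 table of whole-number counts per gene for 12 libraries, which per the submitters' processing notes involved STAR, edgeR and the build TAIR10. The sources used here give no tool version, no strand setting and no rule for reads shared by related or overlapping genes. Genes were named by locus from the RefSeq annotation of TAIR10.1, in which 28932 IDs matched and 4399 did not. Promoter sequence came from the RefSeq TAIR10.1 genome.

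Libraries were grouped by genotype from their labels, 3 libraries in each of 4 genotypes. The third pad4 column is numbered 3 in the table, a number that no pad4 title carries (these have 1, 2 and 4), so it was placed in the pad4 group by its name alone and is called pad4 replicate 3. Counts were scaled by TMM, filtered by edgeR's expression filter and tested with edgeR 4.0.16 in R 4.3.3 (robust quasi-likelihood, 4 group means over all 12 libraries, two-sided, Benjamini-Hochberg over all genes tested). Fitting all groups lets them share 1 estimate of spread. Standard errors are the log2 fold change divided by the square root of the F value. Alternatives were limma 3.58.1 (voom), DESeq2 1.42.0, RLE scaling, other filters, fewer groups, a replicate block, a within-group component as covariate and the omission of each library. The component is the main axis of the libraries' own deviations from their group means. It takes out spread by its making, so added calls with it are not independent evidence. On simulated counts for 14655 genes with the library sizes of the 12 libraries, the test recovered 76 of the 100 genes given a 4-fold change. It recovered 6 of the 100 given a 2-fold change, and made 3 false calls. Each simulated gene varied on its own, from base levels pooled over the 4 genotypes. The real libraries share an axis that held 52.5% of the within-group variance in the 9 libraries without aig2abc. The simulated recovery and false calls may therefore not hold for them.

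The members and the 28 gene lists, 16 families and 8 marker lists were chosen with earlier results of these data known. Genes were named by rule: the targeted genes, a preset panel, up to 4 called members of a list in each direction (the smallest p where none was called), the largest and most abundant calls, genes at 0 in one group, and the leading interaction genes. Families described by product, the product condition on the photosystem family, the TGACG element and 36 further genes, mostly members of those groups, were chosen after values were seen. A gene at 0 in one group was given a bound from 3 counts over the group, 0.13 CPM in aig2abc pad4 and 0.108 CPM in pad4. With 1 to 3 counts, an exact 95% interval is given.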

Additional observations from a re-analysis of the deposited data

Results flagged for a closer look

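For the genes in this section the log2 change of aig2abc pad4 over pad4 differed from that of aig2abc over Col-0 in the edgeR interaction test, and the values given are that difference (the change without PAD4 minus the change with PAD4). The test of a single library far from its group needs at least 4 libraries and was not applied. An adjusted p under 0.05 over all genes makes an interaction call, and 8.53% of genes tested were called upward and 6.23% downward.

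Genes that encode secreted defence proteins, or are salicylic acid outputs, were among those with a positive difference. Of 13 output genes tested 6 were called upward and 0 downward. Of 9 genes for salicylic acid receptors and turnover 1 was called upward, DLO1, and 0 downward, a share near that of all genes. Among salicylic acid outputs and turnover the difference was 4.43 for PR1, 2.69 for PR5, 1.78 for PR2, 3.40 for PNP-A, 2.42 for GRXS13, 2.22 for the NPR1 interactor NIMIN-2 and 5.48 for DLO1. Of 9 defensins and thionins tested, 3 were called upward, at 2.66 for PDF1.2A, 2.78 for PDF1.2C and 4.64 for PDF1.3, and 1 downward, the thionin THI2.1, at -2.68. Among wall-degrading and wall-linking enzymes it was 3.39 for AT2G43590, 3.12 for PR4, 3.10 for CHI, 1.62 for BG3, 4.48 for Prx37, 2.81 for PRXCB and 1.29 for AT2G43150. The calls of PR1, PR5, PNP-A, DLO1, the 3 defensins, AT2G43590, PR4 and PRXCB held in each omission of 1 library. Those of CHI, BG3, AT2G43150 and GRXS13 were lost in 8 to 10 of 12 omissions, those of PR2 in 5 and those of NIMIN-2 and Prx37 in 2.

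Toxin and detoxification genes with a positive difference included CYP71A12 at 4.14, PAD3 at 3.34, ABCG40 at 3.59, CYP79B3 at 2.14 and CYP71B22 at 1.65. CYP79B3 was not called in aig2abc pad4 against pad4 (log2 0.07) and was lower in aig2abc over Col-0 (-2.07). Among transferases the difference was 2.66 for GSTF6, 1.70 for GSTF10, 1.70 for GSTU4 and 1.33 for UGT87A2. GSTU18, lower in both comparisons and less so without PAD4, gave 1.35, a call lost in 9 of 12 omissions. The GSTF6 and GSTF10 calls held in each omission, while those of CYP71A12, PAD3 and UGT87A2 were lost in 7 of 12 and those of CYP79B3 in 8.

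Receptors, signalling and secreted proteins of unassigned role gave 4.05 for CML41, 4.00 for CRK7, 3.41 for the TIR-domain gene AT1G57630, 2.28 for RLP3, 1.94 for RLP50, 5.07 for the lectin AT3G15356, 4.91 for AT3G18250 and 4.10 for AT3G22600. The RLP3 and RLP50 calls were lost in 9 and 10 of 12 omissions, and the other 6 held in each. These genes do not stand for their families. Of 57 TIR-domain proteins tested 1 had an upward interaction call and 6 a downward one, and of 27 receptor-like proteins 3 and 3. Pattern receptors and early signalling gave 2 upward and 3 downward of 20, and cysteine-rich receptor-like kinases 1 and 1 of 20. Senescence genes gave 5.06 for SAG12, 1.93 for SAG13, 1.96 for SAG21 and 2.26 for the blue copper protein SAG14. Enzymes with large gains gave 5.2 for AT1G59950, 3.48 for PXMT1 and 5.07 for DIN11, and the DIN11 call was lost without Col-0 replicate 1 (edgeR adjusted p = 0.0905). SAG12 lost its call in 4 omissions and SAG13 in 3.

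AIG2A differed by 1.68, a call that held in each omission, and AIG2B by -2.28, a call lost in 8 of 12. AT3G01345, an uncharacterised protein, gave the largest value of the section, 7.95, with log2 0.75 in aig2abc pad4 over pad4 and -7.21 in aig2abc over Col-0. It was not called in aig2abc pad4 over pad4, where its log2 was 0.05 without aig2abc pad4 replicate 3 and 1.92 without pad4 replicate 1.

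Some genes were lower in both comparisons and less so without PAD4, which also gives a positive difference. It was 2.02 for SAUR20, 1.99 for SAUR22, 3.41 for the related AT5G18030, 1.83 for AT5G15780, 3.31 for AT3G42658.1, which has no product in the annotation used, and 1.1 for the photosystem I subunit PSI-P. LHCB5, not called in aig2abc pad4 against pad4, gave 2.31. Of these 7 the calls of AT3G42658.1 and LHCB5 held in each omission.

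In the other direction, ADS1 gave -1.68, ACA1 -2.98 and the dehydrogenase-like AT3G50560 -1.85, genes that were lower in aig2abc pad4 than in pad4, and of these the ACA1 call held in each omission. Smaller gains without PAD4 were measured for ICS1 at -1.53, AOC3 at -1.43 and AAO1 at -1.87, and all 3 calls were lost in 9 of 12 omissions. A set with no call in aig2abc pad4 against pad4 rose in aig2abc over Col-0 and gave -3.77 for the leucine-rich repeat gene AT1G25570, -3.69 for the aminophospholipid ATPase ALA2, -3.11 for the receptor kinase gene AT3G28040, -2.93 for RK2, -2.40 for AT5G28220 and -2.09 for the autophagy gene ATG3. The calls of these 6 held in each omission. The aig2abc libraries were the shallowest of the series, and the part of depth in these differences was not tested.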

How the results depend on the processing

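Higher genes numbered 500 with RLE scaling, 585 without a count filter, 515 with at least 1 CPM in 3 libraries, 531 with limma-voom, 637 with DESeq2, 443 in 9 libraries without aig2abc and 388 in the 6 libraries of both groups, against 503. Of the 503, 502 were called in the same direction by DESeq2, 485 by limma-voom and 382 in the 6 libraries. Lower genes, 100 with all libraries, numbered 57 in the 9 libraries, 31 in the 6 libraries and 226 with DESeq2. With the within-group component as a covariate (9 libraries) there were 981 higher and 654 lower genes. Leaving out 1 library gave 351 to 618 higher genes and 22 (without aig2abc pad4 replicate 2) to 317 lower genes (without aig2abc pad4 replicate 3). The interaction gave 690 higher genes with limma-voom, and 323 (without pad4 replicate 3) to 2443 higher and 89 (without aig2abc pad4 replicate 2) to 2145 lower genes under omissions, the upper ends without aig2abc pad4 replicate 3. The cause of these moves was not tested.

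With the replicate block there were 422 higher and 97 lower genes, and 400 of the 503 were called. By their titles the groups share only numbers 1 and 2, because no pad4 title carries the number 3 of the third pad4 column. Deviations of libraries 1 of aig2abc pad4 and pad4 correlated at 0.55, those of libraries 2 at -0.115 and those of the third libraries at 0.404. Col-0 replicate 1 correlated at 0.515 with pad4 replicate 1 and at 0.542 with aig2abc pad4 replicate 1. Col-0 replicate 2 correlated at 0.133 and -0.273 with replicates 2 of those groups. Libraries of unlike number also correlated, at 0.464 for pad4 replicate 1 with aig2abc pad4 replicate 2. The value was 0.398 for Col-0 replicate 2 with aig2abc pad4 replicate 3. Replicates 1 and 2 of aig2abc correlated at -0.018 and -0.062 with the same numbers of aig2abc pad4. The correlations thus did not follow the numbers alone, and whether libraries of one number share a batch was not tested.

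Of 189 named genes, 161 to 187 kept direction and side of the threshold in each alternative that tested them. The direction turned in 4, none called here. ATG3 had log2 0.06 with the block, 0.0 with the covariate and -0.19 to 0.08 under omissions, and AT5G28220 had 0.14 with the block and -0.18 to 0.13. Under omissions CYP79B3 had -0.27 to 0.39 and RK2 -0.58 to 0.04. Depth limits low genes: 3 counts over a group correspond to 0.13 CPM in aig2abc pad4 and 0.108 CPM in pad4, and genes changed 2-fold were rarely recovered on simulated data.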

Other observations

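Lipid-transfer proteins, small secreted carriers of lipids grouped by product after the values were seen, moved in both directions, with 6 of 44 tested called higher and 5 lower. AT3G22600 stood at 49.9, 57.4 and 28.6 CPM in aig2abc pad4, against 3.63, 3.33 and 1.64 CPM in pad4 (log2 3.97 ± 0.38, edgeR adjusted p = 2.41e-06). AT4G12490 stood at 31.3, 26.8 and 51.0 CPM in aig2abc pad4, against 7.84, 7.24 and 4.8 CPM in pad4 (log2 2.45 ± 0.36). Among those lower, AT2G10940 stood at 216, 185 and 148 CPM in aig2abc pad4, against 400, 485 and 318 CPM in pad4 (log2 -1.13 ± 0.26). Without pad4 replicate 2 the counts were 3 higher and 0 lower. Without aig2abc pad4 replicate 2 they were 4 and 0, without aig2abc pad4 replicate 1 they were 5 and 1, without aig2abc pad4 replicate 3 they were 6 and 10, and without pad4 replicate 3 they were 4 and 3. Arabinogalactan proteins gave 1 higher and 3 lower of 26. The lower count was 0 without aig2abc pad4 replicate 1 or pad4 replicate 2, 1 without aig2abc pad4 replicate 2 or pad4 replicate 1, 2 without pad4 replicate 3 and 7 without aig2abc pad4 replicate 3. AGP5, the higher one, had a log2 fold change of 2.29 ± 0.38.

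Calcium-binding EF-hand and calmodulin-like proteins gave 6 higher of 43 and 0 lower, among them TCH3, a touch-induced calmodulin-like protein, at 201, 194 and 254 CPM in aig2abc pad4, against 48.7, 57.8 and 64.0 CPM in pad4 (log2 1.93 ± 0.28). TIR-domain proteins, a class of immune receptors and their relatives, gave 5 higher of 57 and 0 lower, and 3 without pad4 replicate 2. AT1G57630 led them at 18.4, 22.9 and 15.6 CPM in aig2abc pad4, against 1.53, 1.15 and 0.936 CPM in pad4 (log2 3.94 ± 0.38). Lectin-domain proteins gave 6 higher of 38 and 0 lower. The groups did not overlap in TCH3 or AT1G57630. These 3 classes were grouped by product after the values were seen.

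In other groups 3 of 25 NAC factors, 4 of 29 MYB factors, 2 of 17 ABCG transporters, 2 of 10 phenylpropanoid and coumarin genes and 1 of 5 cytosolic heat shock genes were higher, with 0 lower in each, where 3.34% of all genes tested were higher. The NAC count was 2 without aig2abc pad4 replicate 1, pad4 replicate 1 or pad4 replicate 2, 1 without aig2abc pad4 replicate 2 and 0 without pad4 replicate 3. The MYB count was 7 without aig2abc pad4 replicate 3. The ABCG count was 1 without aig2abc pad4 replicate 1 or pad4 replicate 1. The heat shock count was 2 without aig2abc pad4 replicate 1 and 0 without pad4 replicate 1 or pad4 replicate 3. PCR1, a small cysteine-rich membrane protein, was among the most abundant gains, at 740, 874 and 1480 CPM in aig2abc pad4, against 140, 241 and 159 CPM in pad4 (log2 2.52 ± 0.36).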
